A study of Mus musculus with 12 samples.

Results

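The genes described here mark the 2-cell-like state of mouse embryonic stem cells (mESCs). They are the Zscan4 copies Zscan4c, Zscan4d and Zscan4f, the zinc finger gene Zfp352, the membrane protein gene Tmem92, and the telomere-related genes Tcstv1 and Tcstv3. The 7 genes were selected on values of these same libraries, namely a larger fall in 2i medium in the J1 line than in the 3B3-3l line, so their levels and differences are given as a description with no test. Of the 7, 5 were found among the 39017 genes of the deposited table, and all 5 passed the filter on low counts that 17885 genes passed. Tcstv1 and Tcstv3 were not analysed here, because none of the name tables used pairs them with an identifier of the gene table. Tmem92 was listed under the older symbol Tmem92-ps.

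A small share of mESCs in culture passes at any time through a state in which genes of the 2-cell embryo are switched on. The transcription factor Dux activates these genes, together with the MERVL family of endogenous retroviruses, and Dppa2 and Dppa4 act upstream of Dux. Heterochromatin factors such as Trim28, Ehmt2 and the chromatin assembly complex hold the state back, and Zscan4 proteins, which act in telomere maintenance and genome stability, are its best known markers. In bulk libraries such as these, fewer cells in the state and less RNA in each such cell cannot be told apart.

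RNA was sequenced from 12 cultures, 3 of each line in each medium. J1 cells are wild-type mESCs from a male embryo. The 3B3-3l line lacks the endogenous Dnmt3a and Dnmt3b genes (Dnmt3a-/-, Dnmt3b-/-) and carries Dnmt3b and Dnmt3l transgenes under the constitutive CAG promoter, which was built to keep de novo DNA methylation going in 2i. It was obtained by drug selection after transfection, and it is the only line of its kind in these samples, so the transgenes and the history of the line cannot be told apart. Per the labels serum medium held 500 U/ml of LIF and 2i medium 1000 U/ml, whereas the study's methods give the same concentration for both, so whether LIF differed is uncertain. The 2i medium also held 1 µM PD0325901, a MEK inhibitor, and 3 µM CHIR99021, a GSK3 inhibitor. Per the study, it was serum-free and made from other base media with defined supplements, whereas serum medium held fetal calf serum. In each comparison of 2i with serum, the inhibitors, the base medium and the absence of serum cannot be told apart. In serum, J1 was grown on inactivated feeder cells that were removed before harvest, and 3B3-3l was grown on gelatin. The labels call the 3 samples of a group biological replicates, without saying whether the cultures were started separately.

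The libraries held between 37050652 and 44515395 reads assigned to genes. Levels are given as CPM, the counts scaled to a common library size of 1000000 reads, and 3 reads in a library, taken as the floor, were worth between 0.0684 and 0.0813 CPM. The 8 mESC markers summed to between 3911 and 6698 CPM in every library. Of the genes changed in the 3B3-3l line, Dnmt3b lay between 866 and 936 CPM in its 6 libraries, against 404 to 427 CPM in J1 in serum and 41.0 to 47.2 CPM in J1 in 2i. Dnmt3l lay between 448 and 511 CPM in 3B3-3l in serum and 285 and 294 CPM in 2i, against 285 CPM in J1 in serum and 47.9 to 55.5 CPM in 2i, so it was lower in 2i in 3B3-3l as well. Dnmt3a still read 29.4 to 34.3 CPM in 3B3-3l in serum and 4.0 to 5.07 CPM in 2i, against 166 to 167 CPM and 38.9 to 44.5 CPM in J1, and reads of the disrupted gene were not told apart from others. Fibroblast markers, which feeder cells would bring, summed to between 108 and 129 CPM in serum and between 17.1 and 27.6 CPM in 2i, in both lines, and endoderm markers to between 58.4 and 72.4 CPM in serum and between 15.3 and 18.2 CPM in 2i. Of the 10 fibroblast markers, 2 were at 0 in all libraries of each group in 2i. Of the 7 fibroblast markers tested, 6 fell in 2i in J1 and 1, Pdgfrb, rose from 6.31 to 19.5 CPM, most of the sum there. In 3B3-3l, 6 of the 7 fell and 0 rose. Of the 8 endoderm markers tested, 3 fell in J1 and 2, Gata4 and Sox17, rose. In 3B3-3l, 6 of the 8 fell, Sox17 among them, and 0 rose. The endoderm sum was carried mostly by Col4a1, which went from 51.3 to 10.1 CPM in J1. Over all tested genes, 32.9% fell and 33.2% rose in J1, and 32.7% fell and 32.7% rose in 3B3-3l, by the test described below. Both marker sums moved with the medium in which the 2-cell-like genes were also lower, and their part in the results was not tested.

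The 3 Zscan4 copies lie in a tandem cluster on chromosome 7 of the mm10 build, and their upstream sequences show how alike they are. The stretches below are the 120 bases that end at the annotated start of Zscan4f (RefSeq, GRCm38) and the matching bases of the other copies, where the annotated start lies 23 bases (Zscan4c) or 34 bases (Zscan4d) further on. They are shown because the copies moved together. Capitals mark CpG sites, the target of DNA methylation, and a TATAAAA box.
Zscan4c: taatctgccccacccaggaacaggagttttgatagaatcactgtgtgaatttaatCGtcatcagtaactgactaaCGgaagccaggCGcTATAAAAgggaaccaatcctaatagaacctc
Zscan4d: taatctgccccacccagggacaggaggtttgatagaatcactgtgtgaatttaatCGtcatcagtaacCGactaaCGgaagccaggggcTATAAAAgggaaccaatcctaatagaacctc
Zscan4f: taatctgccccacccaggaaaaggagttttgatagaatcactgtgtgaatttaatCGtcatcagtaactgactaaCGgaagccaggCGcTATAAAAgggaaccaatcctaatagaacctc

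These stretches lie at chr7:11005602-11005721 on the forward strand for Zscan4c, chr7:11166183-11166302 on the reverse strand for Zscan4d, and chr7:11397795-11397914 on the forward strand for Zscan4f. Zscan4c differed from Zscan4f at 1 of the 120 bases and Zscan4d at 5. Each of the 3 stretches held 3 CpG sites and the TATAAAA box. In the 300-base windows around the annotated starts (250 bases before, 50 after), Zscan4c held 4 CpG sites and Zscan4d and Zscan4f held 3 each, against a median of 7 over the 32851 mouse windows of the same length. A TATAAA box, searched on both strands, was present in the windows of all 3 copies and in 13.6% of all windows.

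Zfp352 lies on chromosome 4 in a window of another kind. The 250 bases before its annotated start, chr4:90218570-90218819 on the forward strand, are printed because a short unit, GACAACACA in capitals, recurs there 9 times. On this strand it occurred at least 2 times in the upstream 250 bases of 1 of the 32851 windows, that of Zfp352 itself. The unit was picked from this window and repeats of other units were not searched, so the count does not show how rare such repeats are.
Zfp352: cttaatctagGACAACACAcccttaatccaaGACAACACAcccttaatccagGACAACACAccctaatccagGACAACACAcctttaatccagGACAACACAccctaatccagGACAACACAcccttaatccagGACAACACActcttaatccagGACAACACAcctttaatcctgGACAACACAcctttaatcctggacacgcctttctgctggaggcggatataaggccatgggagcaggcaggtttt

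The 300-base window of Zfp352 held 2 CpG sites and no TATAAA on either strand. The palindrome GATTNAATC, the core of the sequence that Dux is known to bind, was searched on both strands. It was in none of the 4 windows available for these genes, and in 0.268% of all windows. Tmem92 was not in the table of windows.

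The coding sequences of the copies are nearly the same, which limits how well reads can be divided among them. In the GENCODE vM1 transcripts, Zscan4c and Zscan4f, each with 1521 coding bases, shared 99.6% of them, and Zscan4d shared 97.7% with either copy. The most divergent 90 bases of the 3 coding sequences, positions 676 to 765 counted from the first base of the start codon, are printed with the differing bases in capitals.
Zscan4c: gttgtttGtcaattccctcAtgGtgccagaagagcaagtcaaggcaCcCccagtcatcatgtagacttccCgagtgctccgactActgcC
Zscan4d: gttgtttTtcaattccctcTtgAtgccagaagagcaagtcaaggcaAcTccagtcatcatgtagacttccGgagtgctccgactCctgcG
Zscan4f: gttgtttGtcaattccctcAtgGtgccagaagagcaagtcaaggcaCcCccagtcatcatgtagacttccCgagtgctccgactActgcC

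Zscan4d differed here at 8 positions, and Zscan4c and Zscan4f were identical over the stretch. Of all 31-base stretches of the main Zscan4f transcript, 2.39% were found in no transcript of another Zscan4 gene, against 13.7% for Zscan4c and 40.1% for Zscan4d. The level of a single copy, most of all of Zscan4f, therefore rests on few distinguishing reads, and their sum does not depend on how reads were divided among the 3. It does depend on the division with Zscan4b and Zscan4e, which lie outside it. The shares of 31-base stretches come from protein-coding vM1 sequences, which are not exactly those quantified. Zscan4d-201 was 1992 bases long there and 1829 in the quantification, so its 40.1% need not apply to these reads.

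The Zscan4 copies fell steeply in 2i in J1 and far less in 3B3-3l. The sum of Zscan4c, Zscan4d and Zscan4f was 11.6, 14.0 and 11.4 CPM in J1 in serum and 0.729, 1.17 and 0.951 CPM in J1 in 2i. In 3B3-3l it was 13.7, 14.2 and 15.1 CPM in serum and 6.68, 7.76 and 7.79 CPM in 2i. The 2 serum groups overlapped, the 3B3-3l libraries in 2i lay below all serum libraries, and the J1 libraries in 2i lay far below all others.

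By group, the sum was 12.3 ± 1.46 CPM in J1 in serum, 0.950 ± 0.221 CPM in J1 in 2i, 14.3 ± 0.742 CPM in 3B3-3l in serum and 7.41 ± 0.629 CPM in 3B3-3l in 2i (SD, n = 3 each). It was 13.0-fold lower in 2i than in serum in J1 and 1.93-fold lower in 3B3-3l. The log2 ratio of the means was -3.70 in J1 and -0.95 in 3B3-3l, a difference of 2.74. In 2i the level in 3B3-3l was 7.80-fold that in J1, while in serum it was 1.16-fold.

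**Figure D1:**
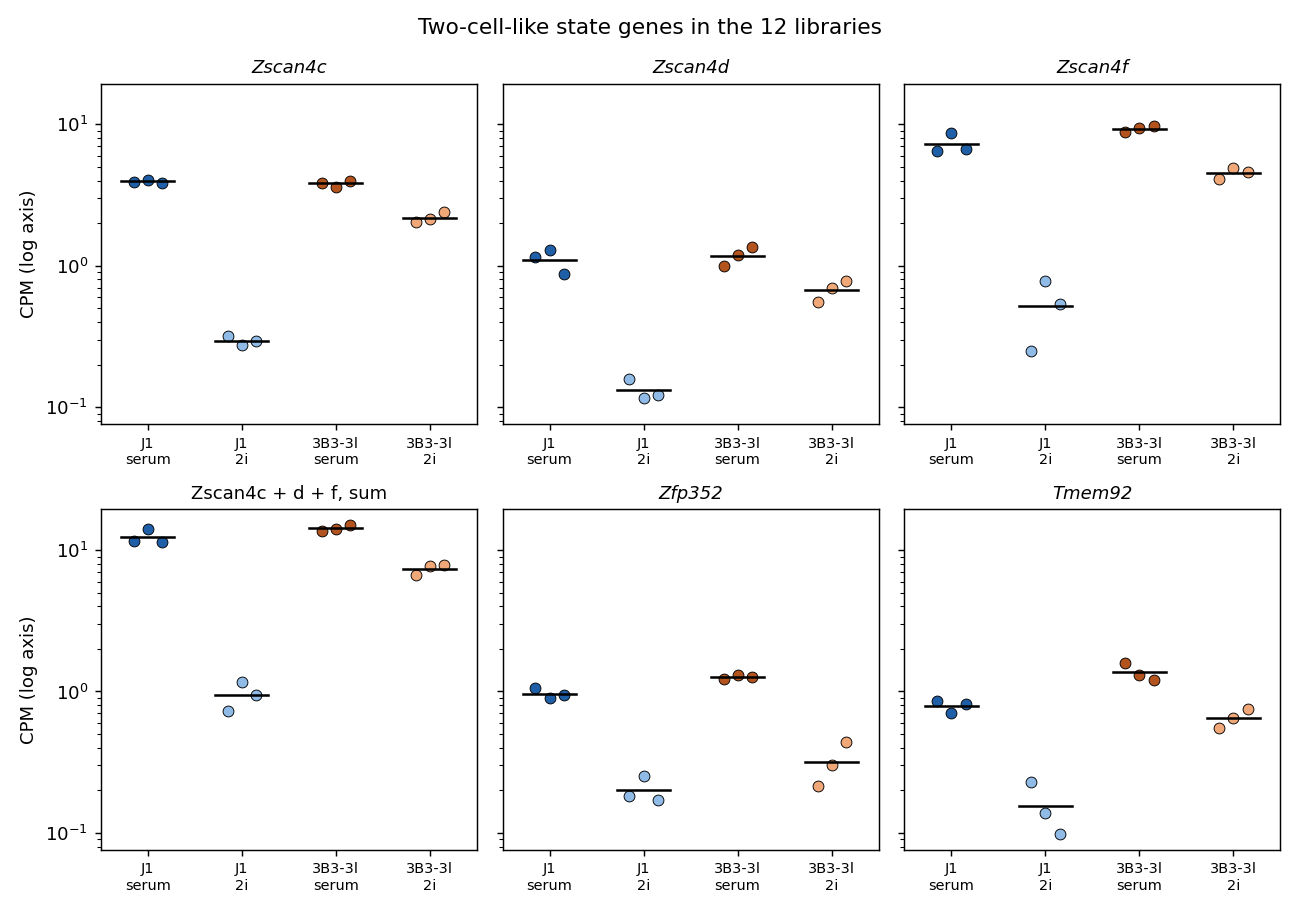
CPM of each gene in the 12 libraries (points, 3 per group, log axis) with the group mean (line), for J1 and 3B3-3l in serum and in 2i. The J1 libraries in 2i are lowest for each Zscan4 copy and for Tmem92, and for Zfp352 the libraries in 2i overlap between the lines.

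Zscan4c, the copy known as the main one in mESCs, was measured with the least spread. Its level was 3.92, 4.07 and 3.88 CPM in J1 in serum, 0.319, 0.275 and 0.293 CPM in J1 in 2i, 3.86, 3.63 and 3.97 CPM in 3B3-3l in serum, and 2.04, 2.13 and 2.40 CPM in 3B3-3l in 2i. The serum groups overlapped and every other pair of neighbouring groups was apart. Its fitted log2 fold change in 2i was -3.73 ± 0.15 (SE) in J1 and -0.80 ± 0.11 in 3B3-3l. The J1 libraries in 2i together held 38 reads of it.

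Zscan4f, the copy with most reads, was 6.50, 8.63 and 6.67 CPM in J1 in serum and 8.82, 9.37 and 9.81 CPM in 3B3-3l in serum. It was 0.251, 0.780 and 0.537 CPM in J1 in 2i and 4.09, 4.93 and 4.62 CPM in 3B3-3l in 2i. All 4 groups were apart, with 3B3-3l in serum highest. The log2 fold change in 2i was -3.79 ± 0.22 in J1 and -1.04 ± 0.16 in 3B3-3l.

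Zscan4d, known as the main copy of the 2-cell embryo, held the fewest reads of the 3. It was 1.15, 1.30 and 0.867 CPM in J1 in serum, 0.159, 0.115 and 0.122 CPM in J1 in 2i, 0.992, 1.19 and 1.36 CPM in 3B3-3l in serum, and 0.553, 0.695 and 0.774 CPM in 3B3-3l in 2i. Its log2 fold change in 2i was -3.04 ± 0.29 in J1 and -0.81 ± 0.22 in 3B3-3l. The deposited count of Zscan4d equalled, within 0.48 reads in every library, the sum of 3 transcripts named Zscan4d-201, Zscan4c-201 and Zscan4-ps2-201 in GENCODE vM1. In J1 in 2i, Zscan4d-201 itself held 7.2 of those reads, all in 1 library, and Zscan4c-201 held 10.

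The transcript tables also hold Zscan4b, Zscan4e and the pseudogene Zscan4-ps2, which the gene table does not list under these names. With them, the copies together held 1720.2 estimated reads in J1 in serum, 145.0 in J1 in 2i, 2008.0 in 3B3-3l in serum and 1092.2 in 3B3-3l in 2i. Zscan4e went from 164.2 to 19.9 reads in 2i in J1 and from 208.5 to 131.7 in 3B3-3l, and Zscan4b from 70.9 to 3.2 and from 93.9 to 44.4. Zscan4-ps2 held 3.3 reads in each line in serum and none in 2i.

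Per length, Zscan4f was the highest copy in each group. In reads per 1000 effective bases, scaled to a library of 1000000 reads, its level in J1 in serum was 4.82 ± 1.07, against 1.89 ± 0.0833 for Zscan4c, 0.863 ± 0.101 for Zscan4e, 0.606 ± 0.0824 for Zscan4d and 0.374 ± 0.153 for Zscan4b (SD, n = 3). Zfp352 (0.471 ± 0.0573) and Tmem92 (0.473 ± 0.0358) were at the level of the lower copies. The order Zscan4f, Zscan4c, Zscan4e held in the means of all 4 groups, and in J1 in 2i Zscan4f was 0.314 ± 0.166 and Zscan4c 0.178 ± 0.0259.

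Zscan4f held 50.6% ± 2.8 of the reads of all copies in J1 in serum, 55.4% ± 0.733 in 3B3-3l in serum, 51.4% ± 3.01 in 3B3-3l in 2i and 43.8% ± 15.1 in J1 in 2i. Zscan4c held 28.3% ± 1.75, 23.9% ± 3.44, 25.5% ± 1.10 and 33.9% ± 5.20 in the same order. Here and in the levels per length, Zscan4c-201 was counted as Zscan4c, whereas the CPM values above counted it as Zscan4d. It made up 20.8% of these Zscan4c reads in J1 in 2i, against 1.82% in J1 in serum. The shares in J1 in 2i spread most, on 145.0 reads in all.

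**Figure D2:**
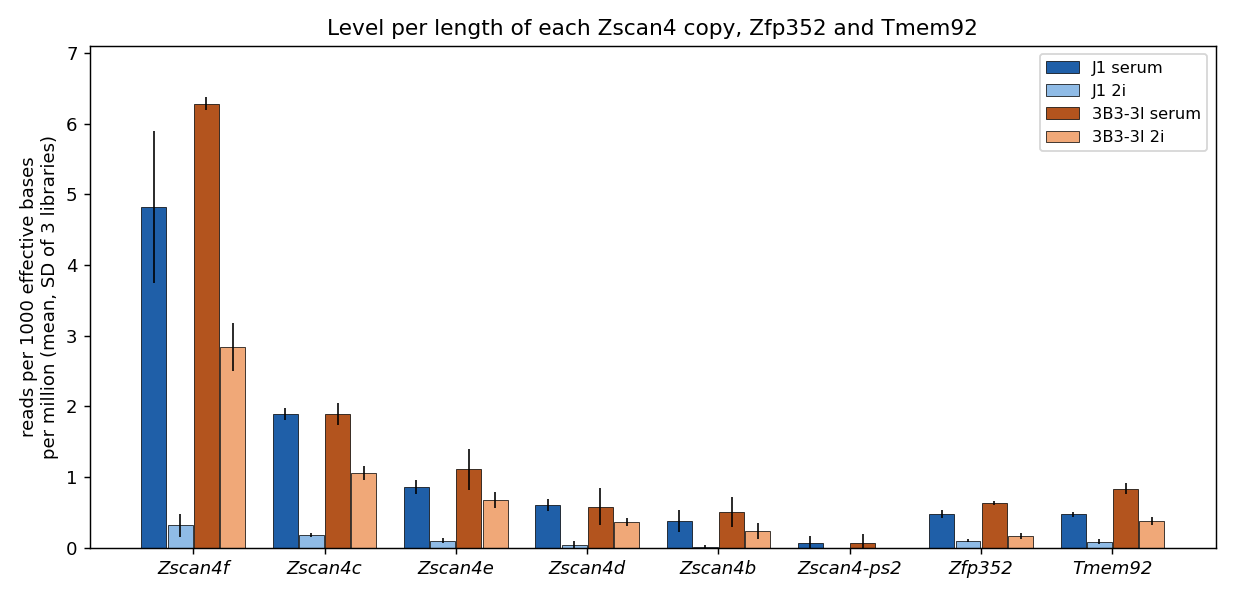
Level per length (reads per 1000 effective bases, library scaled to 1000000 reads) of each Zscan4 copy, Zfp352 and Tmem92 from the transcript tables. Bars are means of 3 libraries and error bars are SDs. Zscan4c-201 is counted as Zscan4c. Zscan4f is highest in each group, at 6.28 in 3B3-3l in serum and 0.314 in J1 in 2i.

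Zfp352 did not share the difference between the lines for which these genes were grouped. It was 1.05, 0.892 and 0.948 CPM in J1 in serum, 0.182, 0.252 and 0.171 CPM in J1 in 2i, 1.23, 1.31 and 1.26 CPM in 3B3-3l in serum, and 0.216, 0.301 and 0.438 CPM in 3B3-3l in 2i. It was lower in 2i in each line by a like amount, with log2 fold changes of -2.24 ± 0.27 in J1 and -1.99 ± 0.24 in 3B3-3l, and its libraries in 2i overlapped between the lines. The fitted difference of the 2i effects was 0.24 ± 0.37, and -0.038 without the third 3B3-3l library in 2i. The libraries in 2i held between 7 and 17 reads of it.

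Tmem92 differed between the lines less than the Zscan4 copies and more than Zfp352. It was 0.860, 0.699 and 0.813 CPM in J1 in serum, 0.228, 0.138 and 0.0976 CPM in J1 in 2i, 1.59, 1.31 and 1.21 CPM in 3B3-3l in serum, and 0.553, 0.649 and 0.748 CPM in 3B3-3l in 2i. The 3B3-3l serum libraries lay above all others, and the 3B3-3l libraries in 2i overlapped those of J1 in serum. The log2 fold change in 2i was -2.32 ± 0.30 in J1 and -1.08 ± 0.22 in 3B3-3l, a difference of 1.25 ± 0.38. The lowest J1 library in 2i held 4 reads of it. Its main transcript, Tmem92-ps-001, held between 75.6% and 93.6% of its reads in each group.

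Across all 12 libraries the genes followed each other, with Pearson r of log2 CPM between 0.829 (Zscan4f and Zfp352) and 0.988 (Zscan4c and Zscan4d). This mostly restates the group means. Around the group means, with 8 residual degrees of freedom, r was 0.669 for Zscan4c and Zscan4d, -0.378 for Zscan4c and Zscan4f, 0.327 for Zscan4f and Zfp352 and -0.636 for Zscan4f and Tmem92. Within groups the sign of r thus differed from pair to pair, in values that share libraries, depth and, for the copies, the division of near-identical reads.

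A likeness to the mean of the 5 genes was computed for 13784 genes averaging 1 CPM or more. The 10 whose log2 CPM was most like it over the 12 libraries had r between 0.985 and 0.990. They were Ehd2, Tdrd12, an unnamed gene (ENSMUSG00000056050), Otx2, Pitpnm2, Mycl1, Cd109, Sall4, Capn3 and Nfatc2. Tdrd12, a piRNA pathway gene of germ cells, averaged 78.1, 31.7, 83.5 and 59.9 CPM in J1 in serum, J1 in 2i, 3B3-3l in serum and 3B3-3l in 2i. Otx2, a homeobox factor of formative pluripotency, averaged 40.5, 2.803, 45.5 and 13.6 CPM, and Sall4, a zinc finger factor of mESCs, 263.8, 138.6, 274.2 and 209.4 CPM. Each was lowest in J1 in 2i, next lowest in 3B3-3l in 2i and close between the lines in serum.

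By deviations from the group means, the 10 most alike genes were Wt1, Gm17143, Sh2d5, Pde3b, Wiz, Trim68, Ubap1, Slc27a2, Sema5a and Jrk, with r between 0.848 and 0.934. Wt1, a zinc finger factor, averaged 0.0463 CPM in J1 in 2i and 0.0905 CPM in 3B3-3l in 2i, near the floor in both lines. None of the first 10 genes was among the second.

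Other genes of the 2-cell-like program, taken from a list of 64 symbols chosen with earlier results of these data known, were tested across all genes with edgeR's quasi-likelihood test and Benjamini-Hochberg adjustment (threshold 0.05). Of these, 30 symbols were in the gene table as 31 genes, and 18 genes passed the filter. In J1, 10 of the 18 fell in 2i and 1 rose, where 32.9% of all tested genes fell and 33.2% rose. In 3B3-3l, 4 fell and 1 rose, where 32.7% of all genes fell and 32.7% rose. The median log2 fold change of the list was -2.06 in J1 and -0.11 in 3B3-3l, against 0.0135 and 0.0091 over all tested genes.

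The difference of the 2i effects between the lines was called in 9 of the 18 genes, each less negative or more positive in 3B3-3l, and in 0 the other way. Over all genes, 16.3% were called in the first direction and 18.3% in the second, and the median difference was 1.27 for the list and -0.027 for all genes. In 2i, 10 of the 18 were higher in 3B3-3l than in J1 and 0 were lower, against 23.0% and 22.9% of all genes. In serum, 0 of the 18 were called by edgeR and 0 by DESeq2, 1 had an unadjusted p under 0.05, beside 21.5% of all tested genes higher and 17.2% lower in 3B3-3l. These comparisons share libraries and are not independent of each other. Of the 9 genes, 4 resemble Eif1a and 3 are Usp17-like, in multicopy families described below. The 18 are thus not separate items to set beside the shares of all genes. Usp17lb, Usp17lc, Usp17le, Gm2016 and Gm8300 held 7, 12, 6, 15 and 23 reads over the J1 libraries in 2i. They passed the filter through the other groups, where they were higher. Among the rest of the 18, Arg2 and Gm12794 held 9 and 6 reads there. With at least 10 counts required in every library, which tests fewer genes, 3 differences were called. The count of 9 thus depends on the filter, and the medians of the list rest partly on genes with these few reads.

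**Figure D3:**
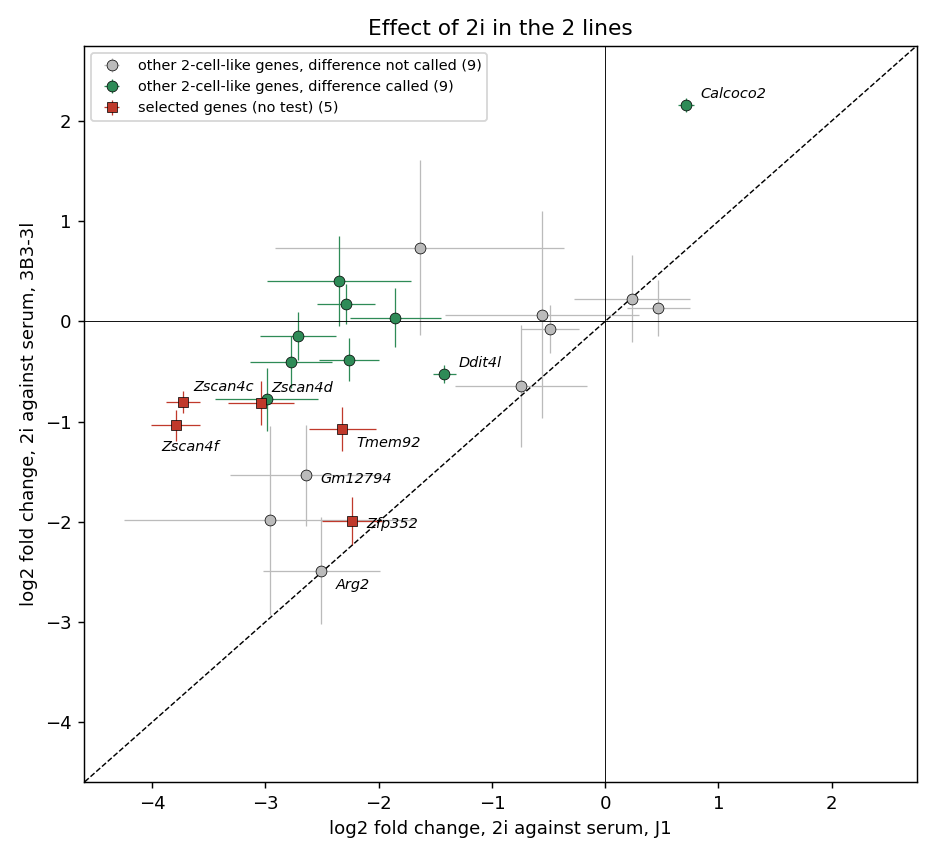
Fitted log2 fold change in 2i against serum in J1 (x axis) and in 3B3-3l (y axis), with SEs as bars, for the 5 selected genes (squares, no test) and the 18 tested genes of the other list (circles, coloured where the difference between lines was called). The dashed line marks equal effects. The Zscan4 copies and the 9 called genes lie above it, and Zfp352 and Arg2 lie on or near it.

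Of the genes that resemble the translation factor Eif1a, a multicopy family active in the 2-cell embryo, 6 were tested. In 2i, 4 fell in J1, where 32.9% of all tested genes fell. In 3B3-3l 0 were called, where 32.7% of all genes fell and 32.7% rose. The difference between the lines was called positive in 4, against 16.3% of all genes. Gm5662, with the most reads among them, was 1.70, 2.15 and 1.79 CPM in J1 in serum, 0.570, 0.298 and 0.293 CPM in J1 in 2i, 2.40, 2.03 and 2.45 CPM in 3B3-3l in serum, and 2.26, 1.74 and 1.26 CPM in 3B3-3l in 2i. Its J1 libraries in 2i lay below all others, and the 3B3-3l groups overlapped. Its log2 difference of effects was 1.88 ± 0.34 (adjusted p = 0.000600).

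BB287469 names 2 gene identifiers. The first was 1.19 CPM in J1 in serum, 0.241 CPM in J1 in 2i, 1.10 CPM in 3B3-3l in serum and 1.24 CPM in 3B3-3l in 2i, a log2 difference of 2.47 ± 0.33 (adjusted p = 4.04e-05). The second was listed at 0 reads in 4 of the 12 libraries and its difference was not called (adjusted p = 0.254). It is among the 10 list genes called higher in 3B3-3l than in J1 in 2i (adjusted p = 0.0486), a call lost under 10 of 18 alternatives. Gm2016 (2.36 ± 0.46, adjusted p = 0.000991) and Gm8300 (1.89 ± 0.50, adjusted p = 0.00829) differed between the lines in the same direction, and without the first J1 library in 2i the difference of Gm2016 was 3.06. These genes belong to a multicopy family, so the division of reads among them is uncertain, and how alike they are was not measured here.

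Of the Usp17-like deubiquitinases, another multicopy family of the 2-cell embryo, 4 were tested. In J1, 3 fell in 2i, where 32.9% of all tested genes fell. The difference between the lines was called positive in the same 3, against 16.3% of all genes. Usp17lc was 0.740, 0.675 and 0.461 CPM in J1 in serum, 0.114, 0.0689 and 0.0976 CPM in J1 in 2i, 0.626, 0.693 and 0.747 CPM in 3B3-3l in serum, and 0.529, 0.718 and 0.619 CPM in 3B3-3l in 2i. Its difference was 2.57 ± 0.42 (adjusted p = 0.000245), with the J1 libraries in 2i, at 3 to 5 reads, apart from all others.

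Usp17lb (2.76 ± 0.79, adjusted p = 0.0130) and Usp17le (2.21 ± 0.58, adjusted p = 0.00763) had positive differences on fewer reads, at most 5 in any J1 library in 2i. Without the first J1 library in 2i the difference of Usp17lb was 3.86. Usp17le alone of these also fell in 3B3-3l, by 0.78 ± 0.31 (adjusted p = 0.0406), a call that was lost under 8 of 18 alternatives, where adjusted p ranged from 0.0220 to 0.130. Usp17la averaged 0.859, 0.613, 0.972 and 0.922 CPM in J1 in serum, J1 in 2i, 3B3-3l in serum and 3B3-3l in 2i, and neither effect nor their difference was called.

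**Figure D4:**
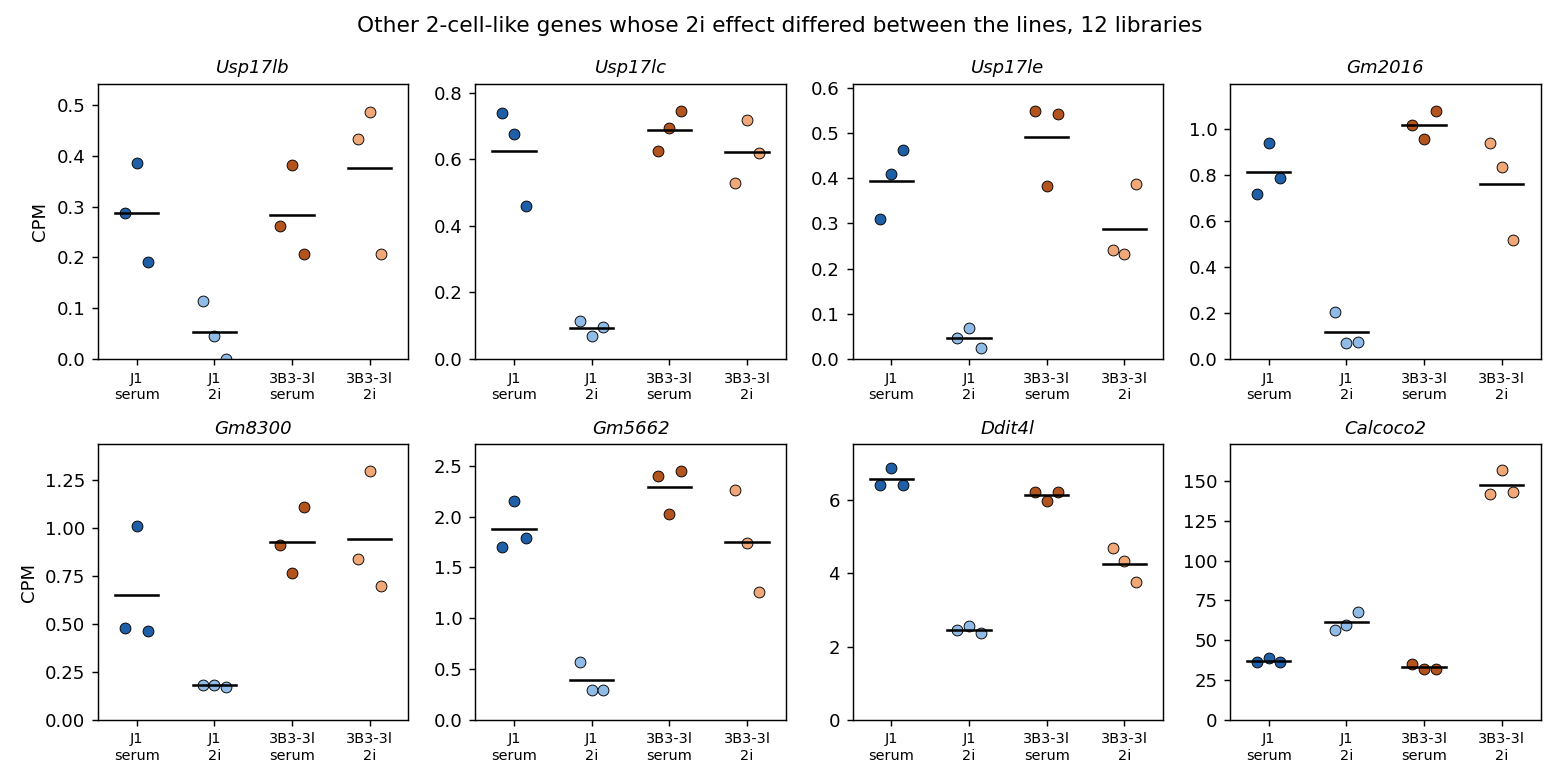
CPM in the 12 libraries (points) and group means (lines) of 8 of the 9 genes whose 2i effect differed between the lines; BB287469, which names 2 identifiers, is left out. Axes start at 0. The J1 libraries in 2i are lowest for each gene but Calcoco2, which is highest in 3B3-3l in 2i at between 142 and 157 CPM.

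Ddit4l, an inhibitor of mTOR signalling, held the most reads among the genes of the list that fell. It was 6.42, 6.87 and 6.4 CPM in J1 in serum, 2.44, 2.55 and 2.37 CPM in J1 in 2i, 6.21, 5.97 and 6.23 CPM in 3B3-3l in serum, and 4.69, 4.33 and 3.76 CPM in 3B3-3l in 2i. It fell in both lines, with log2 fold changes of -1.42 ± 0.10 (adjusted p = 3.33e-09) and -0.52 ± 0.094 (adjusted p = 0.000131), and the difference was 0.90 ± 0.14 (adjusted p = 0.000131).

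Calcoco2, an autophagy receptor, was the gene that rose in both lines. It averaged 37.2 ± 1.53 CPM in J1 in serum, 61.2 ± 5.76 CPM in J1 in 2i, 33.0 ± 2.06 CPM in 3B3-3l in serum and 147.2 ± 8.44 CPM in 3B3-3l in 2i (SD, n = 3). Its log2 rise was 0.72 ± 0.070 in J1 and 2.16 ± 0.071 in 3B3-3l, a difference of 1.44 ± 0.099 (adjusted p = 6.03e-08). It made up most of the summed CPM of the list, so that sum does not follow the other genes.

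Arg2 and Gm12794 fell in both lines and, with Ddit4l and Usp17le, make up the 4 genes that fell in 3B3-3l; they were singled out after their values were seen. Arg2, a mitochondrial arginase, had log2 fold changes of -2.51 ± 0.51 and -2.49 ± 0.54 in J1 and 3B3-3l (adjusted p = 0.000468 and 0.000700), and Gm12794, a Prame family gene, -2.64 ± 0.67 and -1.54 ± 0.50 (adjusted p = 0.00264 and 0.0139). Without the first J1 library in 2i the change of Gm12794 in J1 was -4.38, and its call in 3B3-3l was lost without the second 3B3-3l library in 2i (adjusted p = 0.0686) or the first in serum (adjusted p = 0.0581). Without the second 3B3-3l library in 2i, or without the first 3B3-3l library in serum, the genes called in 3B3-3l numbered 3 in place of 5. Sp110, a nuclear body protein gene, averaged 0.817, 1.12, 0.898 and 0.984 CPM in the 4 groups and was not called in any comparison.

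Dux, listed as Duxf3, lay at or below 6 reads in every library, with 9 reads over the J1 serum libraries, 0 over those of J1 in 2i, 9 over those of 3B3-3l in serum and 2 over those of 3B3-3l in 2i. It did not pass the filter. Of the 13 list genes that did not pass it, 12 without Gm4340 together held 103 reads in J1 in serum, 19 in J1 in 2i, 122 in 3B3-3l in serum and 100 in 3B3-3l in 2i. The MERVL elements were not analysed here.

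Genes listed from general knowledge as activating or repressing the state were tested in the same fit. Of the 4 activating genes tested, 3 fell and 1 rose in 2i in J1 (32.9% and 33.2% of all tested genes), and 2 fell and 1 rose in 3B3-3l (32.7% each of all genes). The difference was called positive in 2 and negative in 1 (16.3% and 18.3% of all genes). Dppa2 was 72.2, 76.8 and 69.8 CPM in J1 in serum, 42.1, 43.8 and 42.2 CPM in J1 in 2i, 48.3, 51.4 and 53.5 CPM in 3B3-3l in serum, and 49.3, 49.8 and 48.5 CPM in 3B3-3l in 2i. It fell in J1 (-0.77 ± 0.052, adjusted p = 2.32e-09) and was not called in 3B3-3l (-0.055 ± 0.052, adjusted p = 0.378), with a difference of 0.72 ± 0.074 (adjusted p = 3.17e-06). Its level in serum was lower in 3B3-3l than in J1, by 0.51 ± 0.052 on the log2 scale (adjusted p = 1.73e-06).

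Dppa4, the partner of Dppa2, fell in both lines, by 1.02 ± 0.051 in J1 and 0.67 ± 0.051 in 3B3-3l, and the difference was 0.35 ± 0.071 (adjusted p = 0.00133). In serum Dppa4 was lower in 3B3-3l than in J1, at 107.6 against 134.3 CPM (log2 difference -0.32 ± 0.050, adjusted p = 0.000121). In 2i its level did not separate the lines (log2 difference 0.033 ± 0.051, adjusted p = 0.632). Tbx3, a T-box factor reported to raise Zscan4, rose by 2.50 ± 0.057 in J1 and 2.25 ± 0.056 in 3B3-3l. Its difference of -0.25 ± 0.078 (adjusted p = 0.0203) was lost without the second 3B3-3l library in serum or the first J1 library in 2i, with adjusted p up to 0.0682.

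Of the 33 repressing genes tested, 16 fell and 14 rose in J1, where 32.9% of all tested genes fell and 33.2% rose. In 3B3-3l, 10 fell and 14 rose, where 32.7% of all genes fell and 32.7% rose. The difference between the lines was called positive in 8 and negative in 6, against 16.3% and 18.3% of all genes. In serum, 11 were higher and 4 lower in 3B3-3l, against 21.5% and 17.2% of all genes, and in 2i, 9 were higher and 5 lower, against 23.0% and 22.9%. Their median log2 fold change was -0.031 in J1 and 0.047 in 3B3-3l, close to the medians over all tested genes given above.

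Trim28 (KAP1), the corepressor of KRAB zinc finger proteins, averaged 1880 ± 69.3 CPM in J1 in serum, 1310 ± 122 CPM in J1 in 2i, 1802 ± 63.5 CPM in 3B3-3l in serum and 1619 ± 88.9 CPM in 3B3-3l in 2i. It fell in J1 by 0.52 ± 0.064 and in 3B3-3l by 0.15 ± 0.064, and the difference was 0.37 ± 0.091 (adjusted p = 0.00552). The call in 3B3-3l (adjusted p = 0.0448) was lost under 6 of 19 alternatives. Zfp42 (Rex1), a pluripotency zinc finger factor, fell in J1 (-0.36 ± 0.058) and rose in 3B3-3l (0.39 ± 0.058), a difference of 0.75 ± 0.083 (adjusted p = 6.10e-06).

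Zfp809, a KRAB zinc finger protein that represses retroviral sequences, also fell in J1 (-0.49 ± 0.080) and rose in 3B3-3l (0.49 ± 0.076), a difference of 0.98 ± 0.11 (adjusted p = 7.20e-06). In the other direction, Ehmt2 (G9a), a histone H3K9 methyltransferase, fell more in 3B3-3l (-0.84 ± 0.056) than in J1 (-0.35 ± 0.056), a difference of -0.48 ± 0.079 (adjusted p = 0.000243). Ring1, a ubiquitin ligase of polycomb repressive complex PRC1, rose less in 3B3-3l (0.24 ± 0.10, adjusted p = 0.0423, a call lost under 13 of 19 alternatives) than in J1 (0.76 ± 0.098). Its difference of -0.52 ± 0.14 (adjusted p = 0.00959) was lost when transcript length offsets were used (adjusted p = 0.0602).

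**Figure D5:**
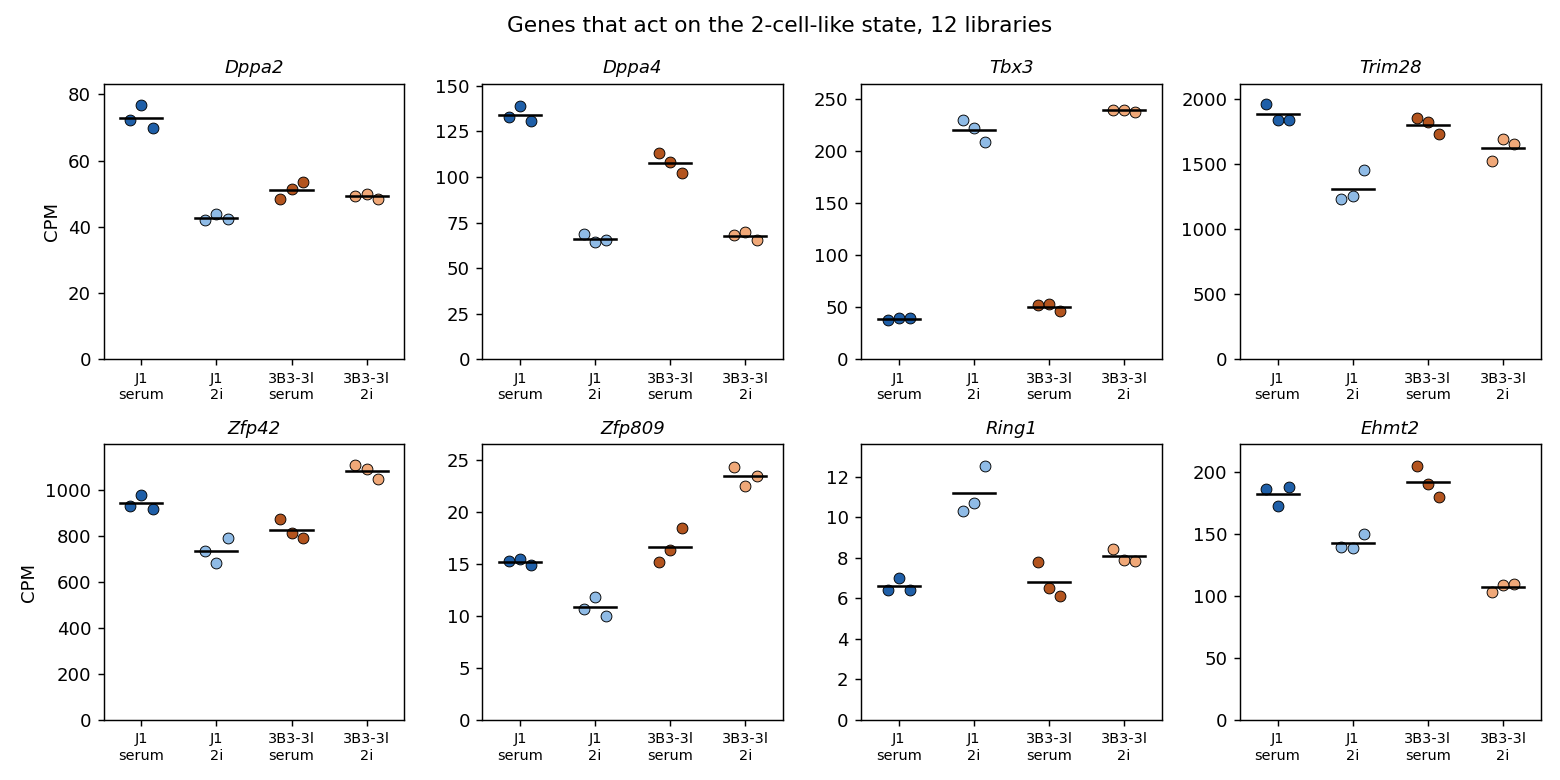
CPM in the 12 libraries (points) and group means (lines) of 8 genes listed as acting on the 2-cell-like state. Axes start at 0. Dppa2 lies between 42.1 and 53.5 CPM in all libraries but those of J1 in serum, which lie between 69.8 and 76.8 CPM.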

How the data were processed

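Poly(A) RNA of 12 mESC cultures was sequenced with stranded libraries, and per the study's methods the authors estimated transcript abundance with Sailfish on mm10 transcripts. The deposited gene table holds estimated counts (expected counts) per Ensembl gene, summed from transcripts by tximport, and the deposited transcript tables hold estimated counts of reads, TPM and effective lengths. Sequencing was run in pools that the labels do not assign to samples.

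The counts were rounded to whole numbers. Genes were filtered by filterByExpr (17885 of 39017 kept), scaled by TMM and fitted with edgeR 4.0.16 (quasi-likelihood, 1 coefficient per group, all 12 libraries) in R 4.3.3. Calls used Benjamini-Hochberg adjusted p over all tested genes with a threshold of 0.05. Biological variation around the fit had a coefficient of 6.49%. The Zscan4 sum was compared as the log2 ratio of group mean CPM. Correlations used log2(CPM + 0.0625). Levels per length divided the estimated reads of each transcript by its effective length. The fitting script was tested on simulated data.

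The members and all gene lists were chosen with earlier results of these data known. Named genes were the members, the other 2-cell-like genes with a called difference between lines (up to 8 by size) or the highest mean CPM (up to 8), the 4 genes of each regulator list with the largest called difference plus Dppa2, Dppa4, Trim28 and Zfp42, and the 10 genes most like the members by each of 2 measures. Symbols came from tables pairing 85.6% of gene identifiers with a name. Sequences came from RefSeq (GRCm38.p6) and GENCODE vM1. Alternatives were other scalings, filters, DESeq2 1.42.0, length offsets, a replicate block, smaller fits and each library left out. P-values weigh the differences between groups against the spread between samples, which may be partly technical. Estimated read counts carry counting error and, for like copies, error from the division of reads.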

Additional observations from a re-analysis of the deposited data

Results flagged for a closer look

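For 17 of the named genes outside the selected set, the effect of 2i differed between the lines by the test of the difference itself (edgeR, adjusted p over all genes). Among the other 2-cell-like genes, the log2 difference, 3B3-3l minus J1, was 2.76 for Usp17lb, 2.57 for Usp17lc, 2.47 for BB287469, 2.36 for Gm2016, 2.21 for Usp17le, 1.89 for Gm8300, 1.88 for Gm5662, 1.44 for Calcoco2 and 0.90 for Ddit4l. Among the genes listed as acting on the state, it was 0.72 for Dppa2, 0.35 for Dppa4, -0.25 for Tbx3, 0.98 for Zfp809, 0.75 for Zfp42, 0.37 for Trim28, -0.52 for Ring1 and -0.48 for Ehmt2. The rule for named genes left out 9 further repressing genes whose difference was also called. Among the 17, adjusted p ranged from 6.03e-08 (Calcoco2) to 0.0203 (Tbx3). Over all tested genes, 16.3% differed in the positive and 18.3% in the negative direction. The causes of these differences were not tested.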

How the results depend on the processing

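The Zscan4 sum moved by less than the spread between replicates under all 51 alternatives run. That spread was the square root of the summed variances of log2 CPM within the groups compared. Taking all genes with a Zscan4 symbol, which are the same 3, or the estimated transcript reads, which rebuild the same counts, could hardly move the sum. Leaving out a library shifts the mean of its group by less than the SD of that group, so those alternatives could hardly pass that spread. Leaving out a library outside the comparison cannot change the ratio of the sum. All these alternatives therefore say little about how stable the sum is. The log2 ratio of the sum lay between -3.87 and -3.40 in J1 and between -1.06 and -0.88 in 3B3-3l, and their difference between 2.34 and 2.92. The lower end of the difference came from TPM. Adding every Zscan4 copy of the transcript tables, an alternative chosen after seeing the data, gave 2.73. The 455 values of single selected genes also moved by less than that spread, with the same limit for libraries left out. The difference of Zfp352 changed sign without replicate 3 of 3B3-3l in 2i.

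Counts of other 2-cell-like genes called were 11, 5, 9, 0 and 10 in J1, in 3B3-3l, for their difference, and between lines in serum and in 2i. Requiring at least 10 counts in every library, which tests fewer genes, gave 3 in J1, 2 in 3B3-3l, 3 for the difference and 3 in 2i. Without a filter the counts were 19 in J1 and 2 in serum. A fit to the libraries compared gave 1 in serum. Leaving out each library gave 3 to 6 in 3B3-3l and 0 to 2 in serum. In serum the count was 2 without replicate 2 of J1 in serum or replicate 3 of J1 in 2i, and 1 without replicate 3 of J1 in serum, replicate 1 or 2 of J1 in 2i, replicate 1 of 3B3-3l in serum, or replicate 1 or 2 of 3B3-3l in 2i. Calcoco2 was called in serum without replicate 1 of 3B3-3l in serum, without replicate 3 of J1 in 2i, in the fit to the libraries compared and without a filter. Gm8300 was called without replicate 2 of J1 in serum. The other calls in serum came from list genes outside the 18 tested in the main fit. Why they appeared was not tested. Counts of regulator genes stayed within 1.5 times under all 94 alternatives.

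Replicate numbers recur in each group, but same-numbered samples did not deviate together (correlation -0.124 to 0.0647), so the numbers were not taken as pairs. With the replicate block the counts were 11, 5, 9, 0 and 9. Depth limits the genes with a few reads per library, above all in J1 in 2i.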

Other observations

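Gm4340, a list gene that did not pass the filter, was listed at 355 reads in the first J1 serum library, 31 in the third 3B3-3l library in 2i and 0 in each of the other 10 libraries. Duxbl1, a relative of Dux, spread from 0.0271 to 0.740 CPM within the J1 serum libraries, and its effect of 2i was -0.56 ± 0.86 in J1 and 0.068 ± 1.03 in 3B3-3l (SE), neither called. Trophoblast markers summed to between 71.1 and 72.5 CPM in J1 in serum, 85.3 and 87.7 CPM in J1 in 2i, 77.7 and 89.2 CPM in 3B3-3l in serum, and 58.8 and 62.5 CPM in 3B3-3l in 2i. These sums do not follow the single markers. By the edgeR test, 5 of the 8 were lower and 2 higher in 2i, in each line. The higher sum of J1 in 2i came mostly from Eomes, with means of 2.86 (J1, serum), 28.1 (J1, 2i), 3.55 (3B3-3l, serum) and 18.6 CPM (3B3-3l, 2i). Tfap2c made up most of each sum, its group means lying between 38.6 and 66.9 CPM.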
